A study of Danio rerio with 5 samples.

Results

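The comparison described here sets 2 libraries of hairpin-injected MZdicer zebrafish embryos against 1 library of wild type embryos. One hairpin library came from MZdicer embryos injected with a miR-430 hairpin that is cut by Argonaute 2 (Ago2 hairpin). The other came from MZdicer embryos injected with the same hairpin carrying 3 phosphorothioate bonds (3xPS hairpin). A gene counted as different only when both hairpin libraries differed from wild type in the same direction, which was the case for 2159 of 14097 measured genes out of 26158 in the tables.

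Poly(A)+ RNA was sequenced from whole embryos at the shield stage of gastrulation (6 hpf), with 1 library of 15 pooled embryos per group. The injected embryos were of the MZdicer strain (hu896/hu896), which lacks maternal and zygotic Dicer, and received 1 nl of a 25 µM stock at the 1-cell stage. Wild type embryos were of the mixed TU/AB/TL/TLF background and were not injected. An uninjected MZdicer library and an MZdicer library injected with a miR-430 duplex are given beside the hairpin values where they help to place them. Strain, injection and the state of Dicer all differ between the hairpin libraries and wild type and cannot be told apart in this comparison. Mock-injected embryos were not analysed here.

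Most animal microRNAs are released from their hairpin precursors by Dicer and loaded into Argonaute proteins. A short hairpin can instead be loaded directly and cut by the slicer activity of Argonaute 2, after which its 3' end is trimmed by a nuclease such as PARN. In early zebrafish embryos the miR-430 family is made in large amounts at the onset of zygotic transcription. It speeds the deadenylation and decay of many maternal transcripts. It also represses both the Nodal ligand gene ndr1 and the Lefty antagonist genes, so that it acts on both sides of Nodal signalling. The comparison therefore asks which transcripts still differ from wild type when Dicer is absent and the microRNA is supplied as a Dicer-independent precursor.

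Total gene counts were 24123349 in the Ago2 hairpin library, 24623675 in the 3xPS hairpin library and 26300080 in the wild type library. The MZdicer library was the smallest, with 14867084 counts, and the duplex library had 25317886. Levels are CPM values, gene counts per 1000000 counts of the TMM-scaled library total, with the scaling done over all 5 libraries. They are levels of poly(A)+ RNA only, and whether poly(A) tail length affected them was not tested. A gene was measured when its mean over the 5 libraries was at least 1 CPM. A difference was called when the ratio of (CPM + 0.5) reached 2-fold and equality lay outside a 95% interval. This exact interval, from the binomial split of both counts, is that of the plain CPM ratio. Folds printed for single genes are plain CPM ratios, whereas calls, log2 ratios and fold thresholds use (CPM + 0.5). Intervals stand in square brackets and cover counting error only, since each group has 1 library. No p-value is given, and every statement compares libraries. Of 29 identifiers for mesoderm and endoderm genes, many of them active in gastrulation, 27 were measured. Of 22 identifiers for genes of tissues not formed at this stage, 3 were measured.

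The mutated gene, DICER1 (ENSDARG00000001129), was at 20.1 CPM in the Ago2 hairpin library and 23.0 CPM in the 3xPS hairpin library, against 36.5 CPM in wild type. The ratios were 1.82-fold lower [1.63, 2.03] and 1.58-fold lower [1.42, 1.76], so that neither passed the 2-fold threshold. A gene count cannot tell mutant from intact transcripts. The slicer Argonaute gene AGO2 (ENSDARG00000061268) was at 590.3 and 675 CPM in the hairpin libraries and 249 CPM in wild type, 2.37-fold [2.298, 2.44] and 2.71-fold [2.63, 2.79] higher. In uninjected MZdicer AGO2 was at 642 CPM, between the hairpin values, and with the duplex at 444 CPM.

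Of the 14097 measured genes, 1626 were higher in both hairpin libraries than in wild type (11.5%) and 533 were lower in both (3.78%), so 75.3% of the joint calls were higher. With upper-quartile factors, which moved the median log2 ratio of all genes by -0.17, the counts were 1295 higher and 860 lower, and 60.1% of the calls were higher. The Ago2 hairpin library alone had 1851 higher genes (13.1%) and 805 lower genes (5.71%). The 3xPS hairpin library alone had 2076 higher (14.7%) and 763 lower (5.41%). Of the Ago2 hairpin calls, 87.8% of the higher and 66.2% of the lower were also called in the 3xPS library. Of the 3xPS calls, 78.3% of the higher and 69.9% of the lower were also called in the Ago2 hairpin library. Both comparisons use the same wild type library, so this agreement is the count that the definition asks for and no independent check. No gene was called higher in one hairpin library and lower in the other.

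**Figure D1:**
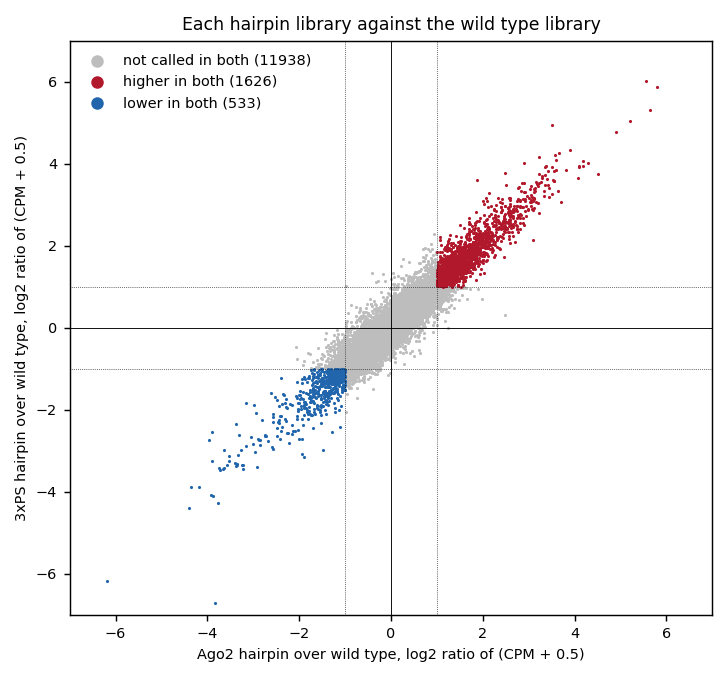
Log2 ratio of (CPM + 0.5) to wild type for each of 14097 measured genes, in the Ago2 hairpin library (x axis) and the 3xPS hairpin library (y axis). Red points are the 1626 genes higher in both, blue points the 533 genes lower in both and grey points the other 11938, and dotted lines mark 2-fold; both axes share the wild type library.

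The genes higher in both hairpin libraries made up 7.57% of all counts in the Ago2 hairpin library and 8.20% in the 3xPS hairpin library, against 2.29% in wild type. They made up 8.99% in uninjected MZdicer and 5.25% with the duplex. Their median log2 ratio to wild type was 1.501 with the Ago2 hairpin, 1.65 with the 3xPS hairpin, 1.74 in MZdicer and 1.09 with the duplex. The genes lower in both made up 0.994% and 0.959% of counts in the hairpin libraries, 1.00% in MZdicer, 1.30% with the duplex and 2.42% in wild type. Their median log2 ratio to wild type was -1.41 with the Ago2 hairpin, -1.42 with the 3xPS hairpin, -1.41 in MZdicer and -1.10 with the duplex. All 4 ratios share the wild type library, and the genes were chosen by the hairpin values. Over all measured genes the median absolute log2 ratio to wild type was 0.46 with the Ago2 hairpin, 0.49 with the 3xPS hairpin, 0.51 in MZdicer and 0.37 with the duplex.

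Large differences were rarer. In both libraries 337 genes were at least 4-fold higher and 74 at least 4-fold lower, and 66 and 24 genes passed 8-fold. The median gene length was 2778 bases for the genes higher in both, 2084 bases for those lower in both and 2205 bases over all measured genes. Just outside the 2-fold threshold, 445 genes were between 1.8-fold and 2-fold higher in the weaker library and 267 were as far lower. Just inside it, 298 and 154 genes lay between 2-fold and 2.2-fold.

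Of the strongest joint differences, several had 0 to 2 counts in wild type. The protease gene tmprss15 was at 29.2 CPM with the Ago2 hairpin and 30.9 CPM with the 3xPS hairpin, and at 0.0393 CPM in wild type, which was 1 count. Its ratios were 743-fold [133, 29382] and 786-fold [141, 31089]. RAB14, which encodes a Rab GTPase of endosomal and Golgi traffic, was at 28.3 and 22.4 CPM in the hairpin libraries, against 0.0787 CPM in wild type, or 2 counts, with ratios of 360-fold [99.2, 2975] and 285-fold [78.5, 2357]. Both genes were also far above wild type in the libraries without a hairpin. In MZdicer and duplex embryos tmprss15 was at 24.5 and 20.01 CPM, and RAB14 at 19.9 and 23.1 CPM.

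LY75, an endocytic receptor gene, was at 199 CPM with the Ago2 hairpin, 274 CPM with the 3xPS hairpin and 3.74 CPM in wild type, 53.1-fold [43.4, 65.8] and 73.4-fold [59.9, 90.8] higher. It was at 265 CPM in MZdicer and 93.9 CPM with the duplex. The proprotein convertase gene pcsk5a was at 10.8 and 9.57 CPM in the hairpin libraries and 0.157 CPM in wild type. The urea cycle gene CPS1 had 78 and 60 counts in the hairpin libraries and 0 in wild type. With wild type set to the floor of 3 counts per library, it was 26.8-fold and 20.5-fold higher. The lower bounds of its intervals were 21.3-fold and 16.2-fold. hadhaa, a subunit gene of the mitochondrial trifunctional protein of fatty acid oxidation, was 19.8-fold [16.5, 23.8] and 18.4-fold [15.4, 22.2] higher. The co-chaperone gene dnajc5ga was 15.4-fold [13.8, 17.3] and 21.0-fold [18.7, 23.5] higher, at 194 and 264 CPM against 12.6 CPM in wild type. In the duplex library dnajc5ga was at 29.8 CPM, well below its 336 CPM in MZdicer. Of the other strongly higher genes, fbxo44.9 was 43.2-fold and 35.6-fold higher, rxfp3.3a1 36.0-fold and 30.5-fold, KCTD12 31.8-fold and 28.0-fold, and NCAM2, with 1 count in wild type, 101-fold [17.7, 4034] and 95.4-fold [16.7, 3810].

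Among the strongest lower genes, ABLIM1 (ENSDARG00000045064), which encodes an actin-binding LIM protein, had 2 counts with the Ago2 hairpin, 0 with the 3xPS hairpin and 206 in wild type. It was 99.8-fold lower [27.3, 829.8] in the Ago2 hairpin library. With the 3xPS library set to the floor of 3 counts it was 66.9-fold lower, with an interval bound of 53.9-fold. It also had 0 counts in MZdicer, the smallest library, and was 40.4-fold lower there by the same floor, with a bound of 32.6-fold. olfcb1, named as an olfactory receptor of class C, had 0 and 2 counts in the hairpin libraries and 138 in wild type. The light chain gene of MHC class I, b2m, was at 1.42 and 1.21 CPM with the hairpins and 28.4 CPM in wild type, 20.02-fold [14.3, 29.0] and 23.5-fold [16.3, 35.1] lower. The filamin gene FLNC (ENSDARG00000018820) was at 1.06 and 1.33 CPM against 20.02 CPM in wild type. The ion channel gene TRPC4, at 0.244 and 0.242 CPM, was 29.2-fold [13.2, 80.7] and 29.4-fold [13.2, 81.2] lower, and SYCP1, which encodes a synaptonemal complex protein, 17.1-fold [8.80, 38.1] and 19.4-fold [9.59, 45.6] lower. The coagulation factor XIII gene f13a1b was at 2.19 and 2.91 CPM, against 36.0 CPM in wild type. dap1b, cspg5a, ptpdc1b and MTERF4 were between 13.6-fold and 29.9-fold lower in the 2 hairpin libraries. In MZdicer and duplex embryos b2m was at 2.94 and 1.78 CPM and FLNC at 1.00 and 0.908 CPM. SYCP1 was nearer to wild type there, at 1.81 CPM in MZdicer and 0.789 CPM with the duplex, against 6.25 CPM in wild type.

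The genes rtn3 and RRM2 (ENSDARG00000078069) depended on which deposited column was read. From whole counts rtn3 was at 7.02 and 7.27 CPM in the hairpin libraries and 0.0393 CPM in wild type. In the deposited column that also holds fractional counts, it was at 23.2 and 25.2 CPM against 15.0 CPM, a ratio that no longer passed 2-fold. RRM2, a ribonucleotide reductase gene whose symbol belongs to 2 identifiers, was at 10.02 and 0.928 CPM with the hairpins and 149 CPM in wild type from whole counts. In the fractional column it was at 709 and 751 CPM with the hairpins and 777 CPM in wild type. The sources used here do not say which reads the fractional column adds.

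**Figure D2:**
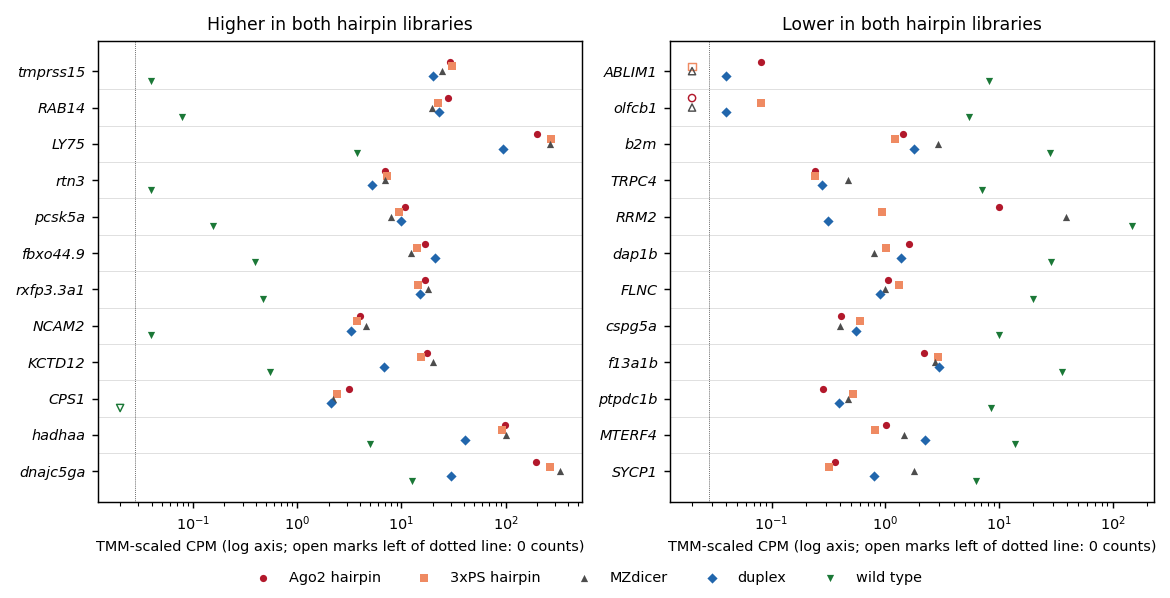
TMM-scaled CPM on a log axis in each of the 5 libraries for the 12 genes with the strongest higher (left) and lower (right) joint values, ranked by the bound of the interval nearest to equality in the weaker hairpin library. Open marks left of the dotted line are libraries with 0 counts. Wild type stands apart from both hairpin libraries by selection, since the genes were ranked on those ratios. MZdicer and the duplex lie on the same side of wild type in all 24 genes. They were not used in the ranking but are read against the same wild type library, so this is no independent check. RRM2 ranges from 0.316 CPM with the duplex to 38.7 CPM in MZdicer, against 149 CPM in wild type. In the column with fractional counts, rtn3 and RRM2 do not differ by 2-fold.

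Some known targets of miR-430 were higher in both hairpin libraries. Of 11 measured identifiers, from 17 listed symbols, 4 were higher in both hairpin libraries and 0 lower, beside 11.5% and 3.78% of all measured genes. Their median log2 ratio, averaged over both hairpin libraries, was 0.53, against 0.04 over all measured genes. The oocyte cyclin gene CCNA1 was at 626 CPM with the Ago2 hairpin, 746 CPM with the 3xPS hairpin and 51.6 CPM in wild type, 12.1-fold [11.5, 12.8] and 14.4-fold [13.7, 15.3] higher. CD82 (ENSDARG00000026070), a tetraspanin gene, was at 85.2 and 164 CPM against 8.73 CPM. The Nodal ligand gene ndr1 was at 20.7 and 18.1 CPM against 2.40 CPM in wild type, 8.64-fold [6.62, 11.5] and 7.54-fold [5.76, 10.02] higher. The Nodal antagonist gene lft2 was at 42.3 and 37.5 CPM against 14.5 CPM. For all 4, both hairpin libraries lay below MZdicer (CCNA1 1027 CPM, CD82 269.9 CPM, ndr1 32.8 CPM, lft2 82.8 CPM) and above the duplex library (198, 18.9, 5.29 and 16.8 CPM).

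The other 7 target identifiers did not pass the threshold. The Tudor domain gene tdrd7a was 1.39-fold [1.27, 1.53] and 1.72-fold [1.57, 1.88] higher, lft1 1.5003-fold and 1.41-fold higher, and the chemokine gene CXCL12 1.40-fold and 1.44-fold higher. ACKR3 (ENSDARG00000058179), which encodes a scavenger receptor for CXCL12, was at 38.0 and 36.5 CPM with the hairpins and 36.0 CPM in wild type. hmmr was at 169.8 and 185 CPM against 157 CPM, and the second CD82 identifier (ENSDARG00000019098) at 89.9 and 91.4 CPM against 75.3 CPM. Both CD82 identifiers entered the list through their shared symbol, and which of them is a known target was not determined. The germ line gene NANOS3 was at 20.7 and 17.5 CPM against 20.8 CPM. In uninjected MZdicer, tdrd7a was 2.43-fold and CXCL12 2.23-fold higher than wild type, and both were called. The remaining identifiers of these 7 were not called in MZdicer either.

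Of 15 germ plasm genes 4 were higher in both hairpin libraries and 0 lower (median log2 ratio 0.61). Counts of list members here and below are read beside the same shares of all measured genes, 11.5% higher and 3.78% lower. TDRD1, a Tudor protein gene of the piRNA pathway, was at 54.3 and 80.9 CPM with the hairpins and 4.76 CPM in wild type, 11.4-fold [9.47, 13.9] and 17.0-fold [14.1, 20.6] higher. TDRD6 was at 65.3 and 132 CPM against 15.8 CPM. buc, the organizer of the Balbiani body and germ plasm, was at 25.0 and 27.0 CPM against 7.36 CPM in wild type, while MZdicer had 169 CPM and the duplex library 6.00 CPM. rgs14a, the fourth, was 2.50-fold and 2.27-fold higher, a call lost with DESeq2 or upper-quartile factors. The germ line helicase gene DDX4 was at 282 and 299 CPM with the hairpins and 299 CPM in wild type.

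Among 43 genes of the oocyte and maternal store, both hairpin libraries had 8 higher and 2 lower (median 0.24), or 18.6% and 4.65%. With upper-quartile factors 5 were higher and the median was 0.06. The oocyte growth factor gene GDF9 was at 11.0 and 10.8 CPM against 1.42 CPM, 7.77-fold [5.47, 11.3] and 7.61-fold [5.36, 11.1] higher. cth1, which encodes a zinc finger RNA-binding protein, was 4.16-fold [3.89, 4.44] and 4.02-fold [3.77, 4.30] higher, and the translational regulator gene CPEB1 3.01-fold [2.57, 3.54] and 3.72-fold [3.18, 4.36] higher. LSM14B, an RNA-binding protein gene of oocytes, was at 33.4 and 32.5 CPM with the hairpins and 10.7 CPM in wild type, against 172 CPM in MZdicer. The 2 lower members were npm2a, an oocyte nucleoplasmin gene, at 4.02 and 4.28 CPM against 10.03 CPM, and MAGI1 (ENSDARG00000070145), whose call was lost with total-count scaling, RPKM, thinned counts or a pseudocount of 1 CPM. The translation factor gene EIF4E1B was at 33.8 and 34.1 CPM against 34.4 CPM.

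Of 6 Argonaute genes 3 were higher in both hairpin libraries and 0 lower (median 1.35). AGO3 (ENSDARG00000063079) was at 50.7 and 83.7 CPM with the hairpins and 9.09 CPM in wild type, 5.58-fold [4.84, 6.45] and 9.21-fold [8.04, 10.6] higher, and ago3a was 3.53-fold [2.84, 4.43] and 4.97-fold [4.02, 6.18] higher. AGO1 was at 6.90 CPM with the Ago2 hairpin and 14.5 CPM with the 3xPS hairpin, against 3.62 CPM in wild type, and was called with the 3xPS hairpin only. The piRNA pathway gene PIWIL1 was at 32.7 and 37.4 CPM against 49.3 CPM.

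Of 13 microRNA processing and silencing genes 4 were higher and 0 lower (median 0.10). They were DGCR8, the partner of Drosha (289 and 295 CPM against 81.9 CPM), the decapping activator gene DDX6 (28.4 and 43.6 CPM against 7.67 CPM), the exonuclease gene DIS3L2 (196 and 236 CPM against 79.4 CPM) and PRKRA, whose call was lost with upper-quartile factors. Of 36 deadenylation and decapping genes 9 were higher and 0 lower (median 0.46). Among them, the deadenylase subunit gene CNOT8 was 3.09-fold [2.94, 3.25] and 3.16-fold [3.01, 3.32] higher, btg3 3.14-fold [2.95, 3.35] and 2.88-fold [2.70, 3.08], and the deadenylase gene PAN2 2.62-fold [2.42, 2.84] and 2.90-fold [2.68, 3.14]. One CNOT4 identifier (ENSDARG00000007045) did not differ by 2-fold, at 69.4 and 75.8 CPM against 68.6 CPM.

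**Figure D3:**
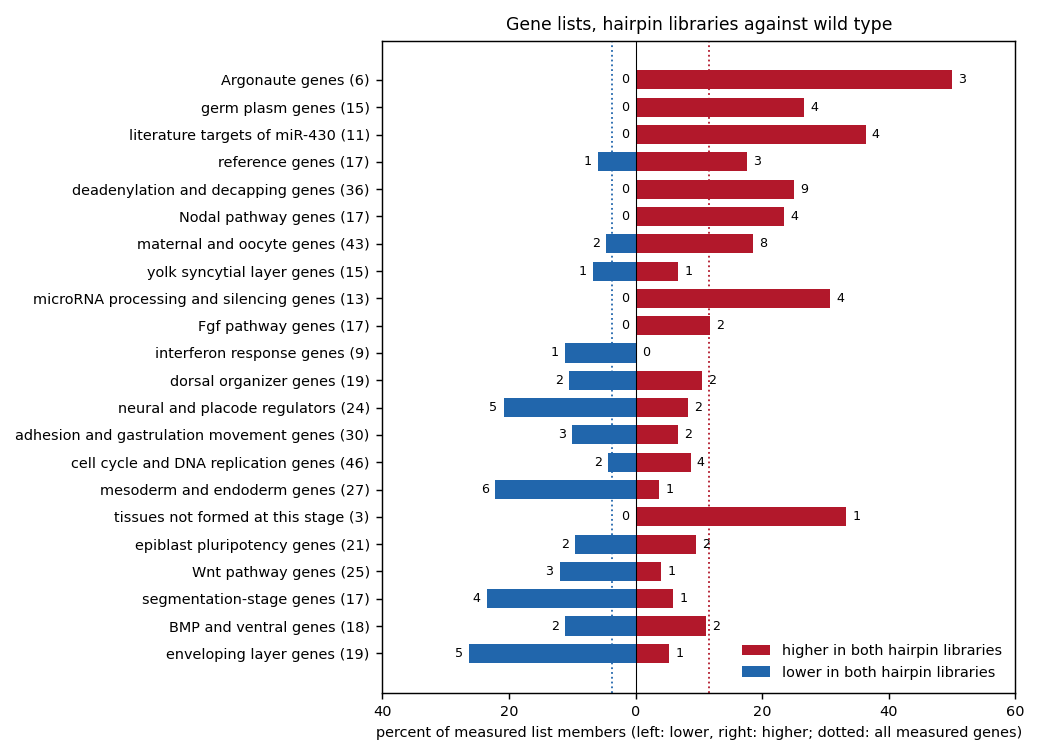
Percent of the measured members of the gene lists shown (number in parentheses) called higher (red, right) or lower (blue, left) in both hairpin libraries than in wild type, with the counts beside the bars and lists ordered by their median log2 ratio. Dotted lines give the same for all measured genes, 11.5% higher and 3.78% lower; enveloping layer, segmentation-stage and mesoderm and endoderm genes hold 5, 4 and 6 lower members.

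Of 17 Nodal pathway genes measured, 4 were higher in both and 0 lower (median 0.37). Beside ndr1 and lft2 these were the signal transducer gene SMAD2, at 89.2 and 105 CPM against 33.3 CPM, and SMAD3 (ENSDARG00000010207), at 2.07 and 2.26 CPM against 0.590 CPM. SMAD2 was at 132 CPM in MZdicer and 28.0 CPM with the duplex. The receptor gene ACVR2A was at 34.7 and 36.7 CPM with the hairpins and 40.8 CPM in wild type.

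Among patterning genes of the gastrula, the dorsal organizer list had 2 higher and 2 lower of 19 (median -0.06). Several members differed by less than 2-fold. The head organizer gene GSC was 1.42-fold [1.31, 1.55] and 1.33-fold [1.22, 1.44] higher and the notochord gene noto 1.44-fold and 1.28-fold higher. FOXA2 was 1.69-fold [1.52, 1.87] and 1.77-fold [1.60, 1.96] higher, and the BMP antagonist gene chrd 1.39-fold [1.35, 1.43] and 1.37-fold [1.33, 1.41] lower. With the Ago2 hairpin GSC was at 53.9 CPM and chrd at 301 CPM, against 27.8 and 175 CPM in MZdicer.

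The lower organizer members were identifiers of the forebrain genes SIX3 and OTX2, and a second SIX3 identifier was among the higher members. SIX3 (ENSDARG00000054879), a forebrain and eye regulator gene, was at 2.64 and 2.66 CPM with the hairpins and 11.2 CPM in wild type, 4.23-fold [3.22, 5.63] and 4.19-fold [3.198, 5.57] lower. OTX2, which specifies anterior neural tissue, was at 2.07 and 1.49 CPM against 6.96 CPM. The higher members were the second SIX3 identifier (ENSDARG00000058008), at 2.96 and 2.50 CPM against 0.905 CPM, and SHH (ENSDARG00000038867), at 2.72 and 1.82 CPM against 0.551 CPM. With a pseudocount of 1 CPM both calls were lost, as were those of rgs14a, SMAD3, BMP1, FZD10, isg15, MAGI1, NTN1, CDKN1B and CCND2. The call of the second SIX3 identifier was lost with upper-quartile factors. In the list of 24 neural and placode regulators, 5 were lower and 2 higher (median -0.23). The placode genes six4a and six4b were 3.38-fold [2.75, 4.16] and 4.82-fold [3.81, 6.14] lower, and 3.21-fold [2.34, 4.46] and 3.57-fold [2.57, 5.03] lower. OTX1 was at 41.7 and 43.8 CPM with the hairpins and 42.9 CPM in wild type.

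Of 27 mesoderm and endoderm genes 6 were lower in both hairpin libraries and 1 higher (median -0.34), and of 17 segmentation-stage genes, which share members with that list, 4 were lower and 1 higher (median -0.58). The T-box gene tbx16l was at 19.3 CPM with the Ago2 hairpin, 15.6 CPM with the 3xPS hairpin and 106 CPM in wild type, 5.49-fold [4.98, 6.06] and 6.81-fold [6.12, 7.59] lower. The caudal homeobox gene cdx4 was at 43.8 and 33.3 CPM against 195 CPM, the presomitic regulator gene msgn1 at 36.2 and 35.6 CPM against 143 CPM, and mespaa, a segment boundary gene, at 6.70 and 5.25 CPM against 33.4 CPM. tbx6 was at 1.14 and 1.13 CPM against 7.47 CPM, and WNT8A (ENSDARG00000052910), a ligand gene of the ventrolateral margin, at 19.4 and 18.5 CPM against 42.3 CPM. The related tbx16 was within 2-fold of wild type, at 970.3 and 929 CPM against 949 CPM, and the endoderm gene GATA5 was at 127 and 133 CPM against 124 CPM.

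The one higher mesendoderm gene was EOMES, a maternally supplied T-box gene. It was at 113 and 142 CPM with the hairpins and 11.8 CPM in wild type, 9.63-fold [8.55, 10.9] and 12.1-fold [10.7, 13.6] higher, against 169.6 CPM in MZdicer and 23.1 CPM with the duplex. The netrin gene NTN1 was the higher segmentation-stage member, at 0.852 and 1.25 CPM against 2 counts in wild type, a call lost with a pseudocount of 1 CPM.

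Of 18 BMP and ventral genes 2 were lower and 2 higher (median -0.60). The ventral genes eve1 and GATA2 were 2.73-fold [2.59, 2.88] and 4.09-fold [3.84, 4.36] lower, and 2.201-fold [2.09, 2.32] and 2.53-fold [2.40, 2.68] lower. The higher members were BMP1 (ENSDARG00000028053), lost with upper-quartile factors, and TP63, an epidermal transcription factor gene, at 6.66 and 11.0 CPM against 2.56 CPM. SMAD5, the transducer of BMP signals, was at 272 and 262 CPM against 282 CPM. In bulk embryos, fewer cells of a type and less RNA per cell cannot be told apart, which holds for these and all other region markers.

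Genes of the enveloping layer, the outer epithelium of the embryo, had the highest share of lower members of these lists. Of 19 measured, 5 were lower in both hairpin libraries and 1, TP63, was higher (median -0.63). TP63 is the epidermal gene given above, and whether it marks this layer was not tested. krt5 was at 888 and 814 CPM with the hairpins and 2007 CPM in wild type, 2.26-fold [2.23, 2.297] and 2.47-fold [2.43, 2.51] lower. The epithelial adhesion gene epcam was at 147 and 123 CPM against 407 CPM, krt17 at 46.2 and 36.7 CPM against 158 CPM, the secretory gene agr1 at 5.64 and 6.01 CPM against 30.2 CPM, and the envoplakin gene evpla at 300.5 and 349 CPM against 739 CPM. The layer regulator gene grhl3 was at 179 CPM in each hairpin library and 211 CPM in wild type. In the yolk syncytial layer list 1 of 15 was higher and 1 lower (median 0.13). mxtx2, a homeobox gene of that layer, was 7.24-fold [5.62, 9.44] and 7.37-fold [5.73, 9.61] higher, and the apolipoprotein gene apoa1a 2.91-fold [2.69, 3.16] and 3.40-fold [3.12, 3.71] lower.

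Of 21 epiblast pluripotency genes 2 were higher and 2 lower (median -0.43), 9.52% each way beside 11.5% and 3.78% of all measured genes. nanog was at 382 and 368 CPM with the hairpins and 83.6 CPM in wild type, 4.56-fold [4.35, 4.79] and 4.40-fold [4.20, 4.62] higher, and sox19b was 2.34-fold [2.22, 2.48] and 2.44-fold [2.31, 2.58] higher. The paralog sox19a was at 337 and 313 CPM against 692 CPM and klf2b at 77.7 and 69.3 CPM against 175 CPM. The call of sox19a was lost with total-count scaling. MYCN was at 94.8 and 92.8 CPM against 95.3 CPM.

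**Figure D4:**
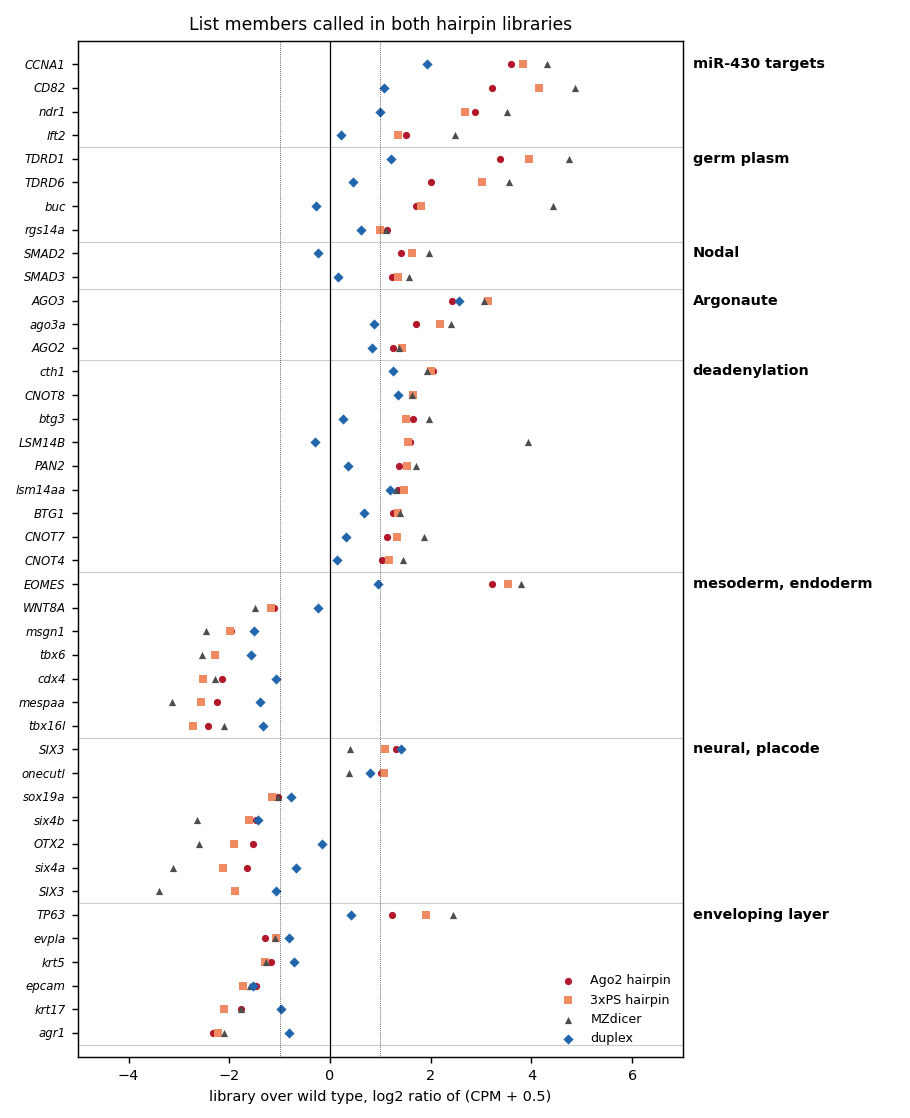
Log2 ratio of (CPM + 0.5) to wild type for members of selected lists called in both hairpin libraries, by list, with each gene shown once under the first list that holds it. The Ago2 hairpin (circles) and 3xPS hairpin (squares) are joined by uninjected MZdicer (triangles) and the duplex (diamonds). The line at 0 is wild type and dotted lines mark 2-fold. Both hairpin values lie between MZdicer and the duplex for 19 of the 26 higher and 8 of the 16 lower genes shown. The lists were chosen with earlier results known, and the same share over all joint calls was not counted.

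Of 25 Wnt genes 3 were lower and 1 higher (median -0.43). WNT8A was the lowest, and the calls of the receptor gene FZD10 and the repressor gene TCF7L1 were lost with total-count scaling. The higher Wnt member, the antagonist gene SFRP1 (ENSDARG00000057678), was at 1.99 and 2.099 CPM against 0.433 CPM. Of 17 Fgf genes 2 were higher and 0 lower (median 0.06), the phosphatase gene DUSP4 by 2.57-fold [2.42, 2.72] and 3.17-fold [2.99, 3.35] and the transcription factor gene etv5a by 2.55-fold [2.40, 2.71] and 2.80-fold [2.64, 2.97]. Of 30 adhesion and gastrulation movement genes 3 were lower and 2 higher (median -0.26). FLNC and epcam are given above, and FN1 (ENSDARG00000006526), a fibronectin gene, was 3.32-fold [2.46, 4.56] and 5.06-fold [3.54, 7.40] lower. The vinculin gene VCL was 3.68-fold [3.11, 4.38] and 4.24-fold [3.60, 5.03] higher and PCDH18 (ENSDARG00000089805), a protocadherin gene, 4.13-fold [3.10, 5.57] and 4.41-fold [3.32, 5.95] higher.

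Of 46 cell cycle and replication genes 4 were higher and 2 lower (median -0.31), or 8.70% and 4.35%, beside 11.5% and 3.78% of all measured genes. Beside CCNA1, the mitotic cyclin gene CCNB2 was at 449 and 516 CPM with the hairpins and 219 CPM in wild type, a call lost with DESeq2 or upper-quartile factors. CCND2 (ENSDARG00000070408) was at 1.75 and 2.18 CPM against 0.472 CPM and CDKN1B (ENSDARG00000054271) at 2.39 and 2.46 CPM against 0.905 CPM. Both calls were lost with a pseudocount of 1 CPM, and that of CDKN1B also with upper-quartile factors or thinned counts. The lower members were RRM2, with the limit given above, and CDC6. CDC6, a replication licensing gene, was at 231 and 245 CPM against 506 CPM, a call lost with total-count scaling, and CCNA2 was at 460.5 and 504 CPM against 491 CPM.

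Of 9 interferon response genes 1 was lower and 0 higher (median 0.03), isg15 at 1.42 and 1.13 CPM against 3.74 CPM. The 17 commonly used reference genes held 3 higher members and 1 lower member, b2m (median 0.46). TBP, the TATA-binding protein gene, was 2.73-fold [2.54, 2.93] and 2.44-fold [2.27, 2.62] higher, while the calls of SDHA and LSM12 were lost with DESeq2 or upper-quartile factors. actb2 was at 4368 and 4097 CPM with the hairpins and 4110.1 CPM in wild type. Of the 3 measured genes of tissues not formed at this stage, the neuronal gene ELAVL3 was higher, at 2.31 and 3.23 CPM against 0.629 CPM.

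Between the hairpin libraries themselves, the 3xPS hairpin against the Ago2 hairpin gave 70 higher genes (0.497%) and 21 lower genes (0.149%). Of the 1626 genes higher in both, 1525 (93.8%) were within 1.5-fold between the hairpin libraries, and of the 533 lower in both 489 (91.7%) were, against 94.8% of all measured genes. The median log2 ratio of 3xPS hairpin to Ago2 hairpin was 0.11 for the genes higher in both, -0.01 for those lower in both and 0.00 over all measured genes. Of all joint calls, 11 of the higher (0.677%) and 13 of the lower genes (2.44%) were at least 2-fold apart between the hairpin libraries. Over all measured genes 91 were (0.646%), so the share of the higher genes was close to that of all genes. Among the 17 of these with a symbol, the 10 that were higher than wild type all had their higher level with the 3xPS hairpin. Of the 7 that were lower than wild type, 4 were higher with the 3xPS hairpin and 3 with the Ago2 hairpin. The 10 higher genes included the RNA-binding protein gene BICC1 (ENSDARG00000061682), at 12.8 CPM with the 3xPS hairpin and 3.49 CPM with the Ago2 hairpin, against 0.590 CPM in wild type. NIBAN2 (ENSDARG00000008026) was at 58.5 CPM with the 3xPS hairpin and 21.3 CPM with the Ago2 hairpin, against 1.42 CPM in wild type, and TDRD6 at 132 and 65.3 CPM. In MZdicer BICC1 was at 40.1 CPM, NIBAN2 at 108 CPM and TDRD6 at 191 CPM, above the 3xPS hairpin library, whereas the other 7 of the 10 genes were higher with the 3xPS hairpin than in MZdicer.

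Some genes were called in one hairpin library and not in the other. Of the higher calls, 225 were made with the Ago2 hairpin only and 450 with the 3xPS hairpin only. Of the lower calls, 272 were made with the Ago2 hairpin only and 230 with the 3xPS hairpin only. The muscle gene NRAP had 57 counts with the Ago2 hairpin, 3 with the 3xPS hairpin, 54 in MZdicer, 88 with the duplex and 0 in wild type. These raw counts are from libraries of unlike size. After scaling, with wild type set to the floor of 3 counts, NRAP was 19.6-fold higher with the Ago2 hairpin. By the same floor it was 30.6-fold higher in MZdicer and 29.4-fold with the duplex. Such floor ratios leave out the counting error of the library set against the floor. The integrin gene ITGA10 was at 2.03 CPM with the Ago2 hairpin and 7.19 CPM with the 3xPS hairpin, against 10.1 CPM in wild type. smad9, a BMP signal transducer gene, was at 7.26 CPM with the Ago2 hairpin and 3.19 CPM with the 3xPS hairpin, against 14.9 CPM in wild type. ITIH5 and bcam were higher with the Ago2 hairpin, and ATP8B4, SDK2 and PKD2L1 with the 3xPS hairpin, by 2.07-fold to 5.19-fold between the hairpin libraries. The ferritin gene fthl30 was at 3.61 CPM with the Ago2 hairpin and 1.57 CPM with the 3xPS hairpin, against 6.37 CPM in wild type.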

How the data were processed

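The submitters' processing notes name CASAVA 1.8.2, TopHat2 2.0.8 and the zebrafish build Zv9 (danRer7). How reads were counted, with which annotation and strand setting, is not given in these sources. The main values were raw whole-number counts from the authors' deposited table. Estimated counts with fractions, deposited by the authors, were rounded and used as an alternative, as were the authors' RPKM values, which are relative to deposited gene length and count total.

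TMM factors came from edgeR 4.0.16 in R 4.3.3 and intervals from scipy 1.17.1. Symbols matched 18804 of 26158 identifiers, and list symbols were matched without regard to case or, failing that, without a paralog letter. Near-identical or overlapping genes are uncertain.

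Named genes are DICER1, AGO2, the 12 strongest joint calls in each direction by the weaker interval bound, up to 4 called and 2 near-unchanged members of each of 23 lists, all measured literature targets, and 5 genes in each direction called in 1 hairpin library. MAGI1, npm2a, CPEB1, PAN2, AGO1, GSC, noto, FOXA2, chrd, FN1, evpla, NTN1, CDKN1B, CCND2, BICC1, NIBAN2 and genes first named in the closing section were chosen after their values were seen. The members and lists were chosen with earlier results of these data known.

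Alternatives were total-count, DESeq2 1.42.0 and upper-quartile scaling, other filters, pseudocounts and folds, the fractional column, RPKM, thinning to 14867084 counts, and each hairpin library alone. Sequences were not used here, and some named genes and 1 list are not reported here.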

Additional observations from a re-analysis of the deposited data

Results flagged for a closer look

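Among the named genes, ONECUT2 (ENSDARG00000090387), a neural transcription factor gene, stood apart because the hairpin libraries lay on opposite sides of wild type. Only named genes were searched for this pattern, and some of them were picked for a large ratio between the hairpin libraries. ONECUT2 was at 1.95 CPM with the Ago2 hairpin and 9.24 CPM with the 3xPS hairpin, against 4.33 CPM in wild type. The ratio of 3xPS to Ago2 hairpin was 4.75-fold [3.46, 6.62]. Its calls against wild type did not go in opposite directions. The difference was not tested over samples, since each group has 1 library. MZdicer had 2.47 CPM and the duplex library 6.91 CPM.

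The deposited column that also holds fractional counts was outside the main measurement. In it, 532 genes passed the CPM minimum that did not pass with whole counts, and 60 of them (11.3%) differed from wild type in both hairpin libraries, 37 higher and 23 lower, a share below the 15.3% of all genes measured with whole counts. The gene dtnba, chosen after its values were seen, was at 31.5 and 35.0 CPM with the hairpins and 5.32 CPM in wild type in that column, with 2, 0 and 1 whole counts.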

How the results depend on the processing

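No named joint call changed direction under 12 alternatives. Each covered all 92 such genes except the minimum of 5 CPM, which covered 70. The filter, pseudocount and fold settings cannot reverse a ratio. The largest scaling shift, -0.17 in the median log2 ratio of all genes, was far below 2-fold. For these settings the kept direction was therefore fixed in advance. Of the 92 calls, 88 were kept with total-count scaling, 88 with DESeq2 size factors, 85 with upper-quartile factors, 90 with the fractional column, 88 with RPKM, 90 after thinning, 85 with a pseudocount of 1 and 39 at 4-fold. Of 18 further joint calls chosen after their values were seen, 14 were kept with a pseudocount of 1, 17 with total-count scaling, upper-quartile factors or RPKM, 16 after thinning and 3 at 4-fold. At 1.5-fold, 3041 genes were higher and 1592 lower in both libraries, 3490 and 2145 in the Ago2 hairpin library, and 3702 and 2254 in the 3xPS hairpin library. At 4-fold these were 337 and 74, 377 and 98, and 467 and 104. Upper-quartile factors gave 860 lower genes in both, 1211 with the Ago2 hairpin and 1232 with the 3xPS hairpin. A minimum of 5 CPM gave 277, 411 and 411 lower genes. Each hairpin library alone gave 1851 to 2076 higher and 763 to 805 lower genes. The other counts stayed within 1.5 times. The threshold and filter settings differ in how many genes can pass by construction. For upper-quartile factors the cause was not tested beyond the shift of -0.17 in the median log2 ratio of all genes. Of 46 counts of list members, 13 moved by over 1.5 times with upper-quartile factors, among them the lower mesoderm and endoderm genes, with 10, and the higher maternal genes, with 5. The median log2 ratio turned negative with these factors for the Fgf, interferon, microRNA processing and yolk syncytial layer lists, at -0.13, -0.13, -0.08 and -0.06, and for all genes, at -0.13. DESeq2 size factors turned the interferon median to -0.02 and that of all genes to -0.01. Without the CPM minimum the interferon median was -0.08 and the neural and placode median 0.02. The dorsal organizer median was 0.01 with total-count scaling or RPKM and 0.11 in the fractional column. No paired analysis was possible because each group has 1 library. With 1 library per group, spread between embryo pools was not measured.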

Other observations

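Abundant transcripts, chosen after their values were seen, were among the joint calls. The profilin gene pfn2b was at 1434 CPM with the Ago2 hairpin and 1504 CPM with the 3xPS hairpin, against 277 CPM in wild type. The lysosomal membrane gene LAMP2 was at 1425 CPM in both hairpin libraries and 538 CPM in wild type, and the glycolysis regulator gene PFKFB4 at 722 and 755 CPM against 216 CPM. caprin2, an RNA-binding protein gene, was 7.26-fold [6.92, 7.62] and 7.76-fold [7.39, 8.14] higher, and the general transcription factor gene GTF2A1 4.02-fold [3.90, 4.16] and 3.93-fold [3.81, 4.06] higher. The lysosomal protease gene CTSB was at 196 and 170.1 CPM against 441 CPM.

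Gene families were counted by symbol after earlier results were known, and only some of those counted are given here. Of 76 cytosolic ribosomal protein genes 3 were higher and 0 lower, of 63 mitochondrial ribosomal protein genes 1 and 0, of 87 respiratory chain and ATP synthase genes 4 and 0, and of 44 proteasome genes 2 and 0. Of 138 znf genes 6 were higher and 4 lower, and of 206 solute carrier genes 37 were higher and 8 lower, beside 11.5% and 3.78% of all measured genes. Read beside the same shares, 4 of 14 Sox genes were higher and 1 lower, and 1 of 10 Tbx genes was higher and 3 lower.

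PRDM13, a neural regulator gene chosen after its values were seen, had a MZdicer level within 1.5-fold of wild type. It was at 3.41 and 2.83 CPM with the hairpins, 0.936 CPM in MZdicer, 0.908 CPM with the duplex and 0.865 CPM in wild type. The last 3 values rest on 14, 23 and 22 counts. By the ratio of (CPM + 0.5), other joint calls also lay within 1.5-fold of wild type in MZdicer, so PRDM13 is a picked example. Among them were SHH (ENSDARG00000038867), SIX3 (ENSDARG00000058008), SFRP1 (ENSDARG00000057678) and isg15. Their log2 ratios in MZdicer were 0.52, 0.39, 0.41 and -0.51, less near to wild type than PRDM13 at 0.07.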
